A study of Mus musculus with 6 samples.

Results

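The insulin-like growth factor (IGF) family was described in soleus of male mice, in 3 samples from knockout (KO) mice that lack estrogen receptor beta (the product of Esr2, a steroid hormone receptor), and in 3 samples from wild-type (WT) C57BL/6 mice. The family comprised the ligands Igf1 and Igf2, the receptors Igf1r and Igf2r, and the binding proteins Igfbp2 to Igfbp7. Every probe set that the array annotation assigned to exactly 1 gene symbol, and to one of these 10 genes, was taken. This gave 14 of 10833 such probe sets and covered 9 of the 10 genes, since the probe set that carries the symbol Igfbp5 carries Tmem119 as well. The strain of the KO mice, the age of the animals and the number of animals behind each sample are not stated in the labels, so a p-value here reflects the scatter of these 6 samples, which may be technical. All 6 samples are male soleus, a postural leg muscle rich in slow fibres, and each was hybridised to an Affymetrix mouse array that gave 1 signal intensity per probe set.

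IGF-1 and IGF-2 are small secreted proteins related to insulin. They act mainly through the tyrosine kinase receptor IGF-1R, which feeds the kinases that raise protein synthesis and restrain protein breakdown, and muscle makes its own IGF-1 during growth, loading and repair. The receptor encoded by Igf2r has no kinase activity and carries IGF-2, as well as lysosomal enzymes, to the lysosome, while the binding proteins hold the ligands outside the cell and set how much reaches the receptors.

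Estrogen receptor beta binds DNA, so RefSeq promoter windows of the family (assembly GRCm38.p6, 250 bases before to 50 after an annotated start) were searched on both strands. The palindromic estrogen response element, the arms GGTCA and TGACC with any 3 bases between, was in 0 of the 13 windows of the 9 genes and in 0.07% of 32851 windows of all genes. The shorter motif AGGTCA, which nuclear receptors bind singly or in pairs and whose last letters the element contains, was in 4 of the 13 windows, 1 each of Igf1, Igf2, Igf1r and Igf2r, and in 16.3% of all windows. No binding protein window held it. The 4 stretches are printed with this motif, or its reverse complement, in capitals. They are followed by stretches of Igfbp4 and Igfbp6, with the motif TATAAA and the motif CCAAT in capitals. These were the brightest binding proteins among those with a probe set of 1 symbol. The Igf1 and Igfbp4 windows lie inside the span that the RefSeq gene table gives these genes.
Igf1, chr10:87860923-87860982, plus strand: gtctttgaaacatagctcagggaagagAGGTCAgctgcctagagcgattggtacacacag
Igf2, chr7:142667007-142667066, minus strand: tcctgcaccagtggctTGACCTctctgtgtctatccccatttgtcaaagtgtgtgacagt
Igf1r, chr7:67952144-67952203, plus strand: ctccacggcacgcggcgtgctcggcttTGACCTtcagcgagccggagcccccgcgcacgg
Igf2r, chr17:12769707-12769766, minus strand: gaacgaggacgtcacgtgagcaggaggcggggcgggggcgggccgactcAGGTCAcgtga
Igfbp4, chr11:99041184-99041243, plus strand: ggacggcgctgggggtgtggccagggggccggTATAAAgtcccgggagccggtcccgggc
Igfbp6, chr15:102144075-102144144, plus strand: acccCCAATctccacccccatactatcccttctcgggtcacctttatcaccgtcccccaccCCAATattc
The AGGTCA match stood 161 bases before the annotated start in Igf1, 234 in Igf2, 86 in Igf1r and 11 in Igf2r. The TATAAA match of Igfbp4 stood 28 bases before its start, and 2 of the 13 family windows, those of Igfbp4 and Igfbp6, held TATAAA on either strand, against 13.6% of all windows. The CCAAT matches of Igfbp6 stood 107 and 50 bases before its start, and CCAAT was in 3 of the 13 family windows, of Igf1, Igf2 and Igfbp6, against 37.4% of all windows. Each match is a description of the sequence, and binding at these places was not measured.

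Values are deposited intensities on a linear scale, on which the mean, once the lowest and highest 2% were trimmed, was 100.07 to 100.08 on every array and the array medians were 39.2, 36.8 and 39.3 in KO and 40.35, 40.5 and 39.8 in WT, lower on every KO array. The probe set of Esr2 read 8.4, 3.9 and 6.2 in KO and 2.2, 3.2 and 1.3 in WT, mostly below the floor of 7.8 used here, so the deletion could not be checked from its own transcript. All 9 markers of slow fibres were above the median signal of the arrays, and none of the 4 liver genes measured was. Markers of the other cells of a muscle were present too: summed over the list, fibroblast markers read 5663 to 6022 in KO and 5560 to 6506 in WT, with 10 of 10 above the median signal. Endothelial markers read 1540 to 1586 in KO and 1465 to 1670 in WT, with 10 of 10 above it. In a whole-muscle sample, fewer cells of a type and less RNA per cell cannot be told apart.

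No member of the family passed the test between KO and WT soleus. Both ligands, both receptors, Igfbp4 and Igfbp6 were bright enough to be tested, through 7 of the 14 probe sets, and 5 of the 7 were higher and 2 lower in KO by small amounts. Of all probe sets tested, 2983 were higher and 3386 lower in KO. In limma's fit over 6369 probe sets, 0 of the 7 passed an adjusted p of 0.05, as did 0 of all probe sets (0.0%). At an unadjusted p under 0.05 there were 0 of 7 against 5.24% of all probe sets tested, and the KO and WT values were separated without overlap for 0 of 7 against 10.7%. The log2 differences of the 7 ran from -0.05 to 0.24, with a median of 0.03, while the median over all probe sets tested was -0.02. With each array scaled to a common median, the 7 were all higher in KO with a median of 0.09, and the median over all probe sets tested was 0.05. This scaling moved both medians up, and the share of all probe sets higher in KO was not counted after it. In absolute size their median was 0.04, against 0.13 over all probe sets tested.

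**Figure D1:**
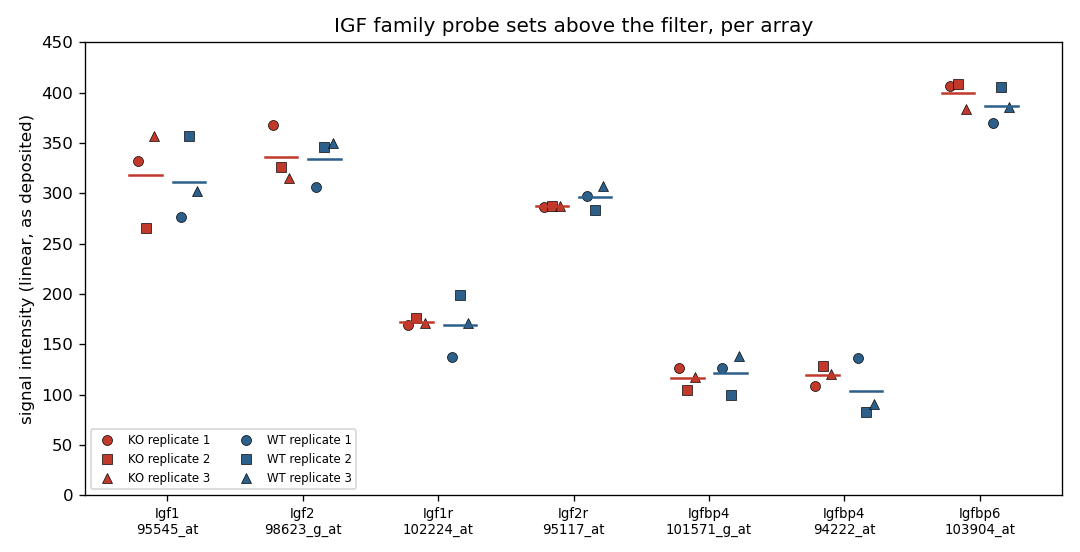
Signal intensity on each array (vertical axis, linear, as deposited) of the 7 probe sets that were tested, with KO in red on the left and WT in blue on the right of each pair, points for arrays and bars for group means. The groups overlap for every probe set, and the KO points of Igf2r almost coincide at 286.5 to 287.6.

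Igf1 encodes the ligand that muscle fibres and their neighbours secrete. Its bright probe set read 331.7, 265.3 and 357.0 in KO and 276.5, 356.6 and 302.0 in WT. The lowest array was a KO array and the highest ones came from both groups, so the ranges almost coincided. The means were 318.0 ± 47.4 in KO and 311.7 ± 40.9 in WT (SD, n = 3 each), a log2 difference of 0.03 ± 0.15 (SE; adjusted p = 0.996 in limma). The 95% confidence interval allows a KO level of 0.802 to 1.29 times that of WT. Replicate 2 of each group, the pair of arrays that share the rarer prefix of the sample titles, ran against the rest: its log2 difference was -0.43, and over the other 4 arrays it was 0.25. What the prefix stands for is not stated, and its part in these values was not tested.

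Igf2 encodes the second ligand, a growth factor of the fetus that is expressed from the paternal allele. Its bright probe set read 368.4, 325.8 and 315.7 in KO and 306.8, 346.1 and 350.2 in WT. A KO array was the highest and a WT array the lowest, but the other KO arrays lay below the other WT arrays. The means were 336.6 ± 28.0 in KO and 334.4 ± 24.0 in WT (SD, n = 3 each), and the log2 difference was 0.0090 ± 0.12 (SE; adjusted p = 0.996 in limma). The interval ran from 0.833 to 1.21 times the WT level.

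Igf1r encodes the receptor tyrosine kinase through which both ligands signal. It read 169.3, 176.0 and 171.0 in KO and 137.1, 199.2 and 170.9 in WT. The KO arrays lay close together inside the wider range of the WT arrays. Means were 172.1 ± 3.48 in KO and 169.1 ± 31.1 in WT (SD, n = 3 each), with a log2 difference of 0.04 ± 0.16 (SE; adjusted p = 0.996 in limma) and an interval of 0.808 to 1.31 times WT.

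Igf2r encodes the mannose 6-phosphate receptor that clears IGF-2, from the maternal allele in mice. It read 286.5, 287.6 and 287.0 in KO and 297.3, 283.8 and 307.6 in WT. The KO arrays almost coincided and lay inside the WT range. It was the steadiest of the family: only 0.471% of the probe sets tested had a smaller spread within groups. Means were 287.0 ± 0.551 in KO and 296.2 ± 11.9 in WT (SD, n = 3 each). The log2 difference was -0.04 ± 0.11 (SE; adjusted p = 0.986 in limma), and the interval ran from 0.817 to 1.15 times WT.

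**Figure D2:**
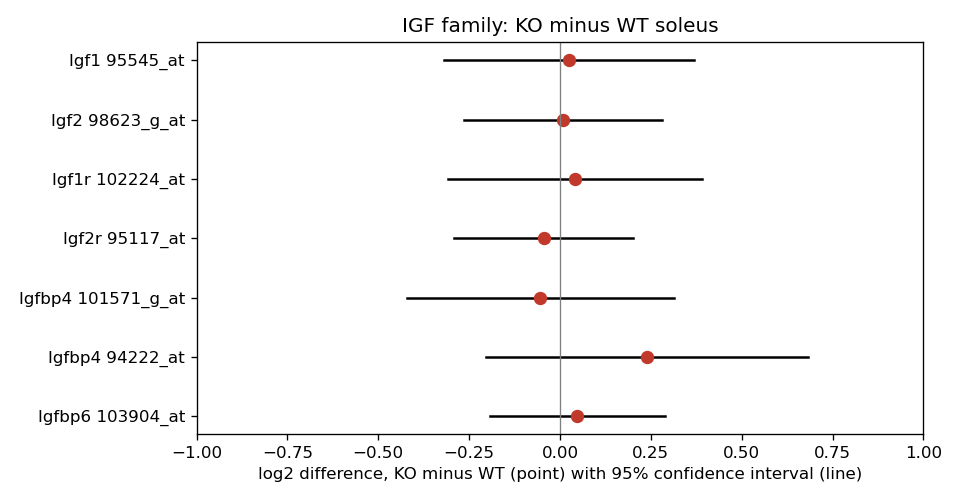
Log2 difference, KO minus WT, of the 7 tested probe sets (horizontal axis), with points for limma's estimates and lines for 95% confidence intervals. Every interval spans 0, and the widest is that of Igfbp4 probe set 94222_at, from -0.21 to 0.68.

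Of the 5 binding proteins with a probe set of 1 symbol, Igfbp6 gave the highest signal and Igfbp4 the next. Both were clear of the rest on all 6 arrays. Igfbp5 was not ranked. The probe set that carries its symbol carries Tmem119 as well, and it read 510.1 to 779.0, above Igfbp6 on every array. Placed by its brightest probe set, Igfbp6 averaged 393.5 ± 16.1 over the arrays, Igfbp4 119.2 ± 14.5, Igfbp2 29.2 ± 8.74, Igfbp7 27.4 ± 6.86 and Igfbp3 21.3 ± 7.16 (SD, n = 6). Igfbp6 was brighter than 92.7% and Igfbp4 than 75.7% of all probe sets, while Igfbp2, Igfbp7 and Igfbp3 were brighter than 43.3%, 41.9% and 36.5%. The 6 values of Igfbp6 (369.5 to 409.1) did not overlap those of Igfbp4 (100 to 138.3), and those did not overlap the values of Igfbp2 (19.7 to 39.9). Igfbp2, Igfbp7 (19 to 37.6) and Igfbp3 (12.8 to 34.0) overlapped and changed places from array to array, so their order was not resolved. Signal depends on the probes as well as on the transcript, so this is an order of signal and not of transcript number.

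**Figure D3:**
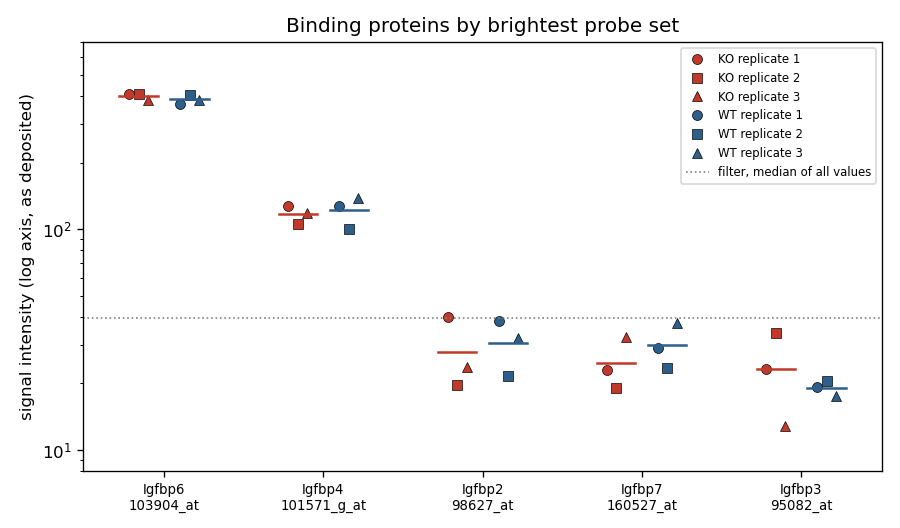
Signal intensity per array (vertical axis, log scale) of the 5 binding proteins that were ranked, which leaves out Igfbp5. They are placed from left to right by the mean of the brightest probe set, with KO in red left of WT in blue. Bars show group means. Igfbp6 and Igfbp4 stand above the dotted line, the median of all values at 39.4, on every array, and only KO replicate 1 of Igfbp2 crosses it among the other 3 genes.

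Igfbp6 encodes a binding protein with a preference for IGF-2. It read 406.7, 409.1 and 384.0 in KO and 369.5, 405.8 and 385.7 in WT. The KO arrays held the highest values and a WT array the lowest, with the others interleaved. Means were 399.9 ± 13.9 in KO and 387.0 ± 18.2 in WT (SD, n = 3 each), a log2 difference of 0.05 ± 0.11 (SE; adjusted p = 0.984 in limma). The interval ran from 0.875 to 1.22 times WT, and 2.03% of the probe sets tested had a smaller spread within groups.

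Igfbp4 encodes a binding protein that holds IGFs away from their receptor until the protease PAPP-A cleaves it. Probe set 101571_g_at read 126.9, 105.0 and 117.9 in KO and 127.0, 100 and 138.3 in WT, with KO values inside the WT range. Its means were 116.6 ± 11.01 in KO and 121.8 ± 19.7 in WT (SD, n = 3 each), a log2 difference of -0.05 ± 0.16 (SE; adjusted p = 0.993 in limma). Probe set 94222_at was nearly as bright and leaned the other way, although WT replicate 1 was its highest array. It read 108.8, 128.2 and 121.0 in KO and 136.2, 82.8 and 91.1 in WT, with a log2 difference of 0.24 ± 0.20 (SE; adjusted p = 0.958 in limma). The difference moved with single arrays. It was 0.46 without WT replicate 1, at an unadjusted p of 0.0269 and an adjusted p of 0.999, and 0.10 without WT replicate 2. Over the 4 arrays that share a title prefix it was 0.04, and for the other 2 it was 0.63. The log2 ratio of 101571_g_at to 94222_at on the same array averaged -0.03 in KO and 0.26 in WT and did not separate the groups (two-sided exact permutation p = 0.4, where the smallest possible is 0.1). Nor did the 2 probe sets follow each other from array to array: the Pearson correlation of their intensities over the 6 arrays was 0.05.

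Igfbp2, Igfbp3 and Igfbp7 were dim, and their readings overlapped between the groups. Igfbp2, whose protein binds IGF-2 and cell-surface integrins, read 39.9, 19.7 and 23.8 in KO and 38.2, 21.5 and 32.0 in WT. Igfbp7, which encodes a relative with weak affinity for IGFs that is found in vessel walls, read 23.1, 19 and 32.4 in KO and 28.8, 23.5 and 37.6 in WT. In both genes replicate 2 was the lowest array of KO and of WT. Igfbp3, the main carrier of IGFs in blood, read 23.3, 34.0 and 12.8 in KO and 19.2, 20.6 and 17.6 in WT with its brighter probe set. KO values of that probe set spread to either side of the WT values. These readings lay below the filter on all but 1 array, and their ratios of KO to WT means were 0.909 for Igfbp2, 0.829 for Igfbp7 and 1.22 for Igfbp3.

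Probe sets of the same gene often differed widely in level, and the bright pair of Igfbp4 differed in sign. The second Igf1 probe set read 22.0, 31.3 and 29.9 in KO and 31.2, 35.4 and 33.4 in WT, so the bright one gave 10.3 times its signal. KO and WT met at its values of 31.3 and 31.2, and the ratio of its means was 0.832 against 1.02 for the bright probe set. The second Igf2 probe set read 0.7 to 3.3 in KO and 1.4 to 2.4 in WT, under the floor of 7.8 on all 6 arrays, so the mean of the bright one over the 6 arrays was at least 43-fold higher, counted against the floor. Igfbp3's second probe set read 14.8, 10.6 and 21.0 in KO and 20.2, 7.7 and 32.3 in WT, a KO to WT ratio of 0.771 where the other had 1.22. The dimmest Igfbp4 probe set read 3.2 to 4.2 in KO and 4.2 to 14.2 in WT, at or below the floor on 4 arrays, and at this level it is no measure of transcript. Over the 6 arrays, the Pearson correlation between the probe sets of a gene was -0.07 for Igf1, -0.19 for Igf2 and -0.56 for Igfbp3. The dimmest Igfbp4 probe set had a correlation of 0.22 with 101571_g_at and -0.855 with 94222_at. Each of these pairs held a dim probe set. Across the 7 dim probe sets of the family, 6 had a lower and 1 a higher mean in KO, and two-sided exact permutation tests gave p = 0.2 to 0.9. The 6 include the Igf2 probe set under the floor on all arrays and the dimmest Igfbp4 one, so this count rests in part on readings that measure no transcript. Of all 6053 probe sets that were too dim to test, 53.9% had a lower mean in KO as deposited and 48.7% after median scaling, and the count in the family was 6 lower and 1 higher either way.

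**Figure D4:**
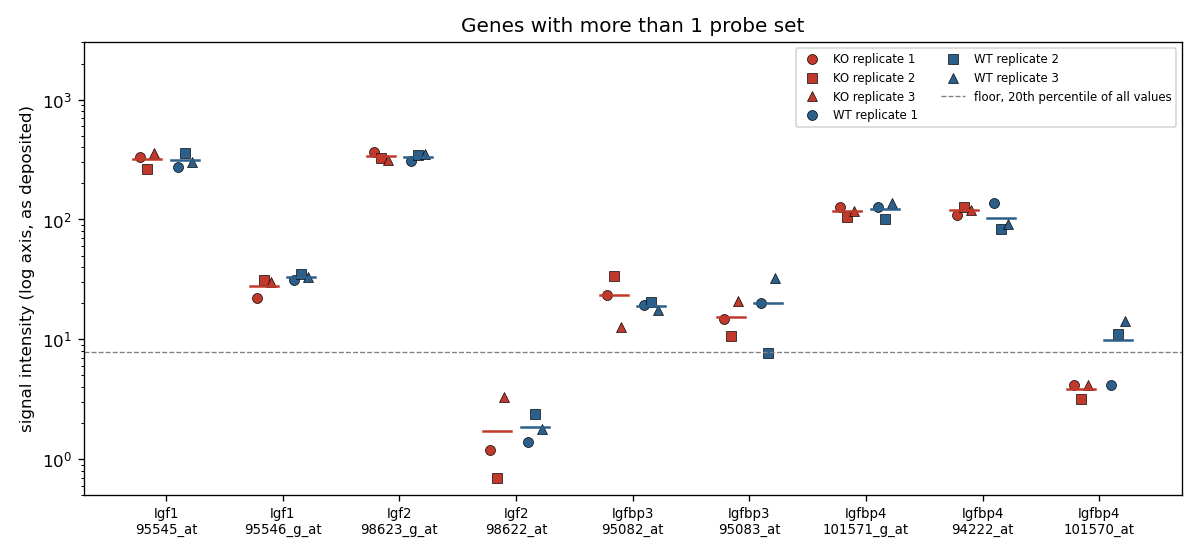
Signal intensity per array (vertical axis, log scale) of the 9 probe sets of the 4 genes measured more than once, with KO in red left of WT in blue and bars for group means. The dimmer probe set of Igf2 lies wholly below the dashed floor of 7.8, and the 2 bright Igfbp4 probe sets lie level with each other.

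The probe set annotated to Tmem119 and Igfbp5 together was brighter than any of the family, but its gene could not be settled from the annotation, and it was left out of the order. It read 579.1, 779.0 and 510.1 in KO and 657.0, 602.5 and 677.8 in WT. Its highest and its lowest arrays were both KO arrays. Means were 622.7 ± 139.7 in KO and 645.8 ± 38.9 in WT (SD, n = 3 each), a log2 difference of -0.07 ± 0.16 (SE; adjusted p = 0.984 in limma).

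Around the family, 5 lists of pathway genes held 76 genes, of which 55 had a probe set with 1 symbol and 38 were tested with the brightest one. In KO 18 were higher and 20 lower, where 2983 of all probe sets tested were higher and 3386 lower. Of the 38, 0 passed an adjusted p of 0.05, and 1 had an unadjusted p under 0.05, which is 2.63% where all probe sets gave 5.24%. The groups were separated without overlap for 4 of the 38, or 10.5%, against 10.7% of all probe sets tested. The median log2 differences of the lists were -0.05 for carriers and proteases of IGFs (1 of 3 tested higher), -0.03 for signalling close to the receptor (6 of 13 higher), 0.01 for growth and translation effectors (6 of 11 higher), 0.07 for the growth hormone axis (4 of 8 higher) and -0.13 for the imprinted genes grouped with Igf2 (1 of 3 higher). Lists of 3 tested genes say little, and a single gene sets their median.

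Socs3, an inhibitor of cytokine and growth hormone signalling, was the pathway gene at an unadjusted p under 0.05. It read 71.3, 80.8 and 77.4 in KO and 89.5, 101.6 and 105.1 in WT, with every KO array below every WT array. The log2 difference was -0.37 ± 0.15 (SE; adjusted p = 0.923 in limma), and the other Socs3 probe set gave -0.23 with groups that overlapped. Of the same axis, Jak2, the kinase bound to the growth hormone receptor, averaged 52.9 ± 6.79 in KO and 70.1 ± 15.7 in WT, and Stat5a, a transcription factor it activates, averaged 273.8 ± 19.96 in KO and 233.3 ± 27.7 in WT (SD, n = 3 each). Their log2 differences were -0.39 and 0.24, at adjusted p = 0.958 and adjusted p = 0.949 in limma. The other Stat5a probe set tested gave 0.17. The low p of Socs3 moved with the scaling of the arrays. In limma its unadjusted p was 0.035 as deposited, 0.06 after quantile normalization and 0.0865 after median scaling. After median scaling the adaptor Grb2 had an unadjusted p of 0.0466 in limma.

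The other pathway genes named did not pass the test. Below the receptor, the adaptor Grb2 read 167.3, 159.4 and 202.8 in KO and 139.4, 129.1 and 166.2 in WT, groups that overlapped by 1 array, with a log2 difference of 0.29. The adaptor Shc1, named after its values were seen because it completes the 4 genes without overlap, read 69.3, 68.6 and 70.8 in KO and 72.9, 75.2 and 78.4 in WT, a log2 difference of -0.12 (adjusted p = 0.968 in limma). Pik3ca, a catalytic subunit of phosphatidylinositol 3-kinase, stood at -0.44 and its other probe set at -0.0029, and the kinase Akt1 stood at 0.16. Eif4ebp2, which restrains the start of translation, averaged 952.2 ± 28.4 in KO and 874.4 ± 24.9 in WT (SD, n = 3 each) without overlap, a log2 difference of 0.12, but its next brightest probe set gave -0.38. The kinases Map2k1 and Map2k2 stood at -0.19 and 0.14. Among proteins that act on IGFs outside the cell, the protease Htra1 stood at -0.13, the metalloprotease Adam28 at 0.14 and stanniocalcin Stc2, which inhibits PAPP-A, at -0.05. Of the imprinted genes, Peg3 read 50.9, 49.2 and 31.1 in KO and 55.3, 75.2 and 54.3 in WT without overlap (log2 difference -0.51, adjusted p = 0.926 in limma), while its other tested probe set gave -0.17 with groups that overlapped. Without KO replicate 3 the Peg3 difference was -0.28. Dlk1 stood at -0.13 and the cell cycle inhibitor Cdkn1c at 0.09. Over all of these genes the adjusted p-values ran from 0.926 to 0.996.

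**Figure D5:**
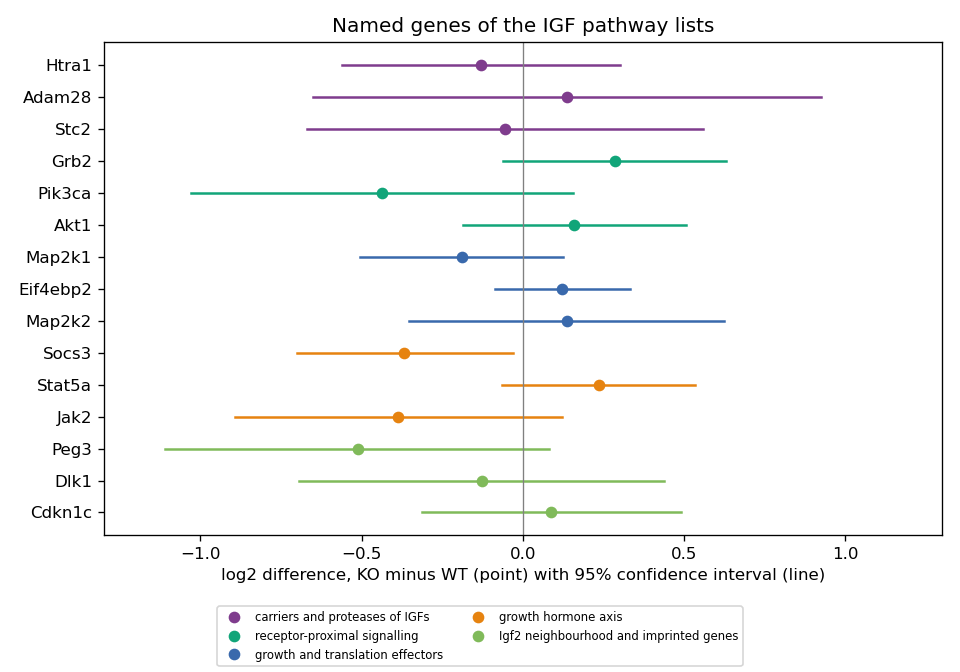
Log2 difference, KO minus WT, of up to 3 genes with the smallest p of each pathway list (horizontal axis), with points for limma's estimates, lines for 95% confidence intervals and colours for the 5 lists. The interval of Socs3, from -0.70 to -0.03, is the one that does not span 0, before adjustment.

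The array-to-array patterns of the bright Igf1 probe set and of Igfbp6, the brightest binding protein ranked, were set against other genes. Pearson correlations of log2 values over 6 arrays were taken with the 5707 other tested probe sets with 1 symbol. Those most like Igf1 were Olfr71 (r = 0.994), Ppp6r3 (r = 0.994) and Cox4i1 (r = 0.978), and those most like Igfbp6 were Otud5 (r = 0.981), Plk1 (r = 0.979) and Ucp3 (r = 0.97). With so few arrays, 69 probe sets had an r over 0.9 with Igf1 and 31 with Igfbp6.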

How the data were processed

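Soleus RNA of 3 KO and 3 WT samples was analysed. The deposited values are signal intensities on a linear scale, 1 per probe set and array, already scaled by the authors to a common level, as the values themselves show; their software is not stated in the sources used here. The 66 control probe sets among 12488 were left out. The annotation gave 1 symbol to 10833 of the other 12422, several to 396 and none to 1193, and 0 symbols changed on look-up in RefSeq GRCm38.p6. Values under 7.8, the 20th percentile, were raised to that floor and taken to log2. Probe sets above 39.4, the median, on at least 3 of 6 arrays were tested: 6369 probe sets. KO minus WT was fitted with limma 3.58.1 in R 4.3.3 (lmFit, then eBayes with an intensity trend) as a two-sided test, and p-values were adjusted over all of them by Benjamini-Hochberg. Dim members got an exact permutation test on intensities. Precision is limited by the number of arrays, with a median standard error of 0.18 on the log2 scale. Steps were tested on simulated data. Members and lists were chosen with earlier results of these data known, and the promoter motifs after the values were seen. Of each pathway list, up to 3 tested genes with the smallest p were named, with their other tested probe sets added afterwards. Map2k1, Jak2, Eif4ebp2 and Peg3 also had a probe set too dim to test, which is not given. Slow fibre, fibroblast, endothelial and liver markers were 4 of 10 marker lists read, and the other 6 were smooth muscle and pericyte, macrophage, adipocyte, Schwann cell, tendon and satellite cell. Replicate numbers follow the order of deposit. Figures used matplotlib 3.10.9 in Python 3.11.15.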

Additional observations from a re-analysis of the deposited data

How the results depend on the processing

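Of the 7 tested member probe sets, 0 passed an adjusted p of 0.05 under any of 15 alternatives (smallest adjusted p = 0.615). The main fit called 0 of all 6369 probe sets (smallest adjusted p = 0.923 in limma), so these counts had little room to differ. They do not show that the family is unchanged. Without the filter all 14 member probe sets were tested, and 0 passed. Of 105 log2 differences of the 7 tested probe sets, 11 changed sign, all near 0. The other floors, the fits without filter or trend and the blocks left these differences unchanged, so they could not change a sign. The 2 arrays of the rarer title prefix were not among the 15. Between them Igf1 (-0.43), Igf1r (-0.18), Igf2 (-0.087), Igf2r (0.019) and Igfbp4 101571_g_at (0.070) had the opposite sign. Igfbp4 94222_at (0.63) and Igfbp6 (0.012) kept theirs. With each array left out in turn the differences ran from -0.063 to 0.15 for Igf1, -0.058 to 0.054 for Igf2, -0.10 to 0.17 for Igf1r and -0.19 to 0.045 for Igfbp4 probe set 101571_g_at. Median scaling gave 0.023 for Igf2r and 0.014 for that Igfbp4 probe set, and quantile normalization gave -0.0083 for Igf2. Among pathway genes that changed sign the same leave-one-out ranges were -0.35 to 0.0028 for Htra1, -0.17 to 0.43 for Adam28, -0.28 to 0.20 for Stc2, -0.017 to 0.35 for Map2k2, -0.42 to 0.024 for Dlk1 and -0.0067 to 0.23 for Cdkn1c. Pik3ca kept its sign but ran from -0.74 without KO replicate 1 (unadjusted p = 0.00634, adjusted p = 0.958 in limma) to -0.18 without KO replicate 3. Jak2 ran from -0.59 without WT replicate 3 (unadjusted p = 0.0236, adjusted p = 0.914 in limma) to -0.28 without WT replicate 2. Stc2 stood at 0.018 after quantile normalization and 0.013 after median scaling, and Map2k2 at -0.049 over the 4 arrays sharing a title prefix. The cause was not tested. Over all genes limma called 1 probe set, which was no family member, without the filter and 1 with adjacent title numbers as a replicate block, and 0 to 1 with an array left out. At an unadjusted p under 0.05 there were 619 without the filter, where 12422 probe sets were tested, 567 over the 4 arrays sharing a title prefix, and 206 to 437 with an array left out. Of the family, 0 to 1 passed that p with an array left out. Same-numbered arrays showed no shared deviation (r = -0.005, 0.035 and -0.003 over 6369 probe sets). Such correlations cannot show whether the samples were paired, and the labels do not say. The order of the binding proteins was kept after quantile normalization and with the mean of each gene's probe sets, and 0 to 2 genes changed place with an array left out: without KO replicate 1, Igfbp7 stood above Igfbp2.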

Other observations

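The summed signal of the other marker lists was as follows. Smooth muscle and pericyte markers read 903.2 to 974.3 in KO and 886.8 to 1021 in WT, with 6 of the 7 measured above the median signal. Macrophage markers read 705 to 828.5 in KO and 697.5 to 1034 in WT, with 6 of 8 above it. Adipocyte markers read 364.8 to 394.8 in KO and 393.8 to 629.4 in WT, a KO to WT ratio of 0.757, with 4 of 4 above it. Schwann cell markers read 346.9 to 430.6 in KO and 363.6 to 486.4 in WT, with 3 of 4 above it. Tendon markers read 1144 to 1811 in KO and 1139 to 1426 in WT, with 2 of 3 above it, and satellite cell markers 177.8 to 246.1 in KO and 210.7 to 239 in WT, with 3 of 4 above it. Slow fibre markers read 71500 to 78570 in KO and 57250 to 72680 in WT, and liver genes 37.3 to 52.7 in KO and 46 to 84.8 in WT, with 0 of 4 above it. Every list overlapped between the groups.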
